A study of Mus musculus with 18 samples.

Results

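The comparison set embryoid bodies labelled as lacking Eed against wild-type embryoid bodies of the same line, with 1 RNA-seq library on each side. Both libraries were taken as the comparison's members because their labels give the same cell line, the same differentiation and different EED genotypes. They are 2 of the 18 samples of the series, which comprise 6 RNA-seq libraries and 12 ChIP-seq samples, the latter not analysed here. All 29851 transcripts of the deposited table were compared. After accessions were matched to gene symbols, 23421 genes remained, of which 14772 reached an FPKM of 1 in any of the line's 4 libraries. FPKM counts sequenced fragments relative to transcript length and library size.

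The cells were E36, a mouse embryonic stem (ES) cell line of 129/Ola background, either wild type or EED knock-out by label. ES cells grew on gelatin in medium with 15% serum and leukemia inhibitory factor (LIF), which holds them undifferentiated. Embryoid bodies (EBs) are cell aggregates that differentiate once LIF is withdrawn. They were started as hanging drops of 1000 cells in 20 µl for 48 hours, received 0.5 µM all-trans retinoic acid from day 2 to day 5 and were harvested on day 9. Wild-type EBs passed through the same steps, so the retinoic acid and the absence of LIF are shared by both sides. The labels give neither the structure of the Eed allele nor the number of clones, and each group is 1 library, so no difference below has a replicate check and no test was run. The ES libraries of both genotypes, also 1 each, are given beside the EB values to show the level before differentiation.

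Eed is a scaffold subunit of Polycomb repressive complex 2 (PRC2), which methylates lysine 27 of histone H3 and keeps many developmental genes silent in cells that do not use them. Genes under this control are typically transcription factors and signalling genes with promoters rich in CG dinucleotides. Retinoic acid is a morphogen of the posterior embryo that directs EBs towards neural tissue, with spinal cord and hindbrain character, beside mesodermal and endodermal cells.

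Eed itself had an FPKM of 72.3 in wild-type ES cells, 77.8 in the ES labelled KO, 25.04 in EB wild type and 21.8 in the EB labelled KO. Its mRNA level does not check the genotype label, because the allele is not given. The EB libraries are therefore called EB wild type and the EB labelled KO, and all directions rest on that label. Of the other core PRC2 genes, the methyltransferase Ezh2 had 38.5 and 38.3 in the 2 EB libraries, the related Ezh1 had 5.73 and 8.23, and the zinc finger subunit Suz12 had 44.99 and 27.02, and none passed the size rule given below. FPKM summed to 492048 in EB wild type and 452782 in the EB labelled KO, and 13171 and 12972 genes reached an FPKM of 1. The most common ratio of low values put the depth of the EB labelled KO at 0.671 of EB wild type, the lowest of the 4 E36 libraries. Only 26 of 890 transcripts lay at that ratio, so the depth of this library is a rough estimate. The library also stood apart in single genes and in chromosomes. The most abundant transcript of the tumour suppressor Trp53 had 239 in wild-type ES cells, 65.5 in the ES labelled KO, 61.7 in EB wild type and 4.8e-06 in the EB labelled KO, and the Y-linked translation factor gene Eif2s3y had 36.9 in wild-type ES cells, 20.4 in the ES labelled KO, 25.7 in EB wild type and 0.0628 in the EB labelled KO. All 3 expressed Y-linked genes were lower. Genes on chromosomes 3, 6 and 11 and at the far (distal) end of chromosome 14 were shifted as blocks, as described with the positions below. Counts without chromosomes 3, 6, 11 and Y, called the shifted chromosomes below, are therefore given where they move a count of at least 3 by over 1.5 times or turn the sign of a median. The labels do not say whether the ES and EB labelled KO libraries come from 1 clone, so stage and clone cannot be told apart where the 2 comparisons differ. The part of these features in other differences was not tested.

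A gene was called higher or lower where its log2(FPKM + 1) differed by at least 1 between the EB labelled KO and EB wild type, here called the size rule. Differences are on this scale throughout, labelled KO minus wild type, stand in parentheses after the levels of a gene, and understate the change of weakly expressed genes. Of 14772 expressed genes, 1135 were higher (7.68%) and 1450 were lower (9.82%), which is the background for every count that follows. The same rule called 417 genes higher (2.82%) and 445 lower (3.01%) between the ES libraries. The median gene lay at -0.14, the 5th percentile at -1.42 and the 95th at 1.25. Rescaling the libraries by median of ratios moved the median gene to -0.03 and the split to 1347 higher and 1156 lower. With upper-quartile rescaling the split was 1374 and 1203, and with equal totals it was 1379 and 1271, so more genes were lower than higher only on the deposited scale. The median of every list below is on the deposited scale and is to be read against -0.14.

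The tail of lower genes was the longer one. A difference of at least 2 was seen for 213 genes in the higher direction and 390 in the lower, and a difference of at least 3 for 71 and 202. Some genes were near absent from one library. A total of 184 genes had an FPKM of at least 5 in EB wild type and under 0.5 in the EB labelled KO, and 67 genes had the reverse.

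**Figure D1:**
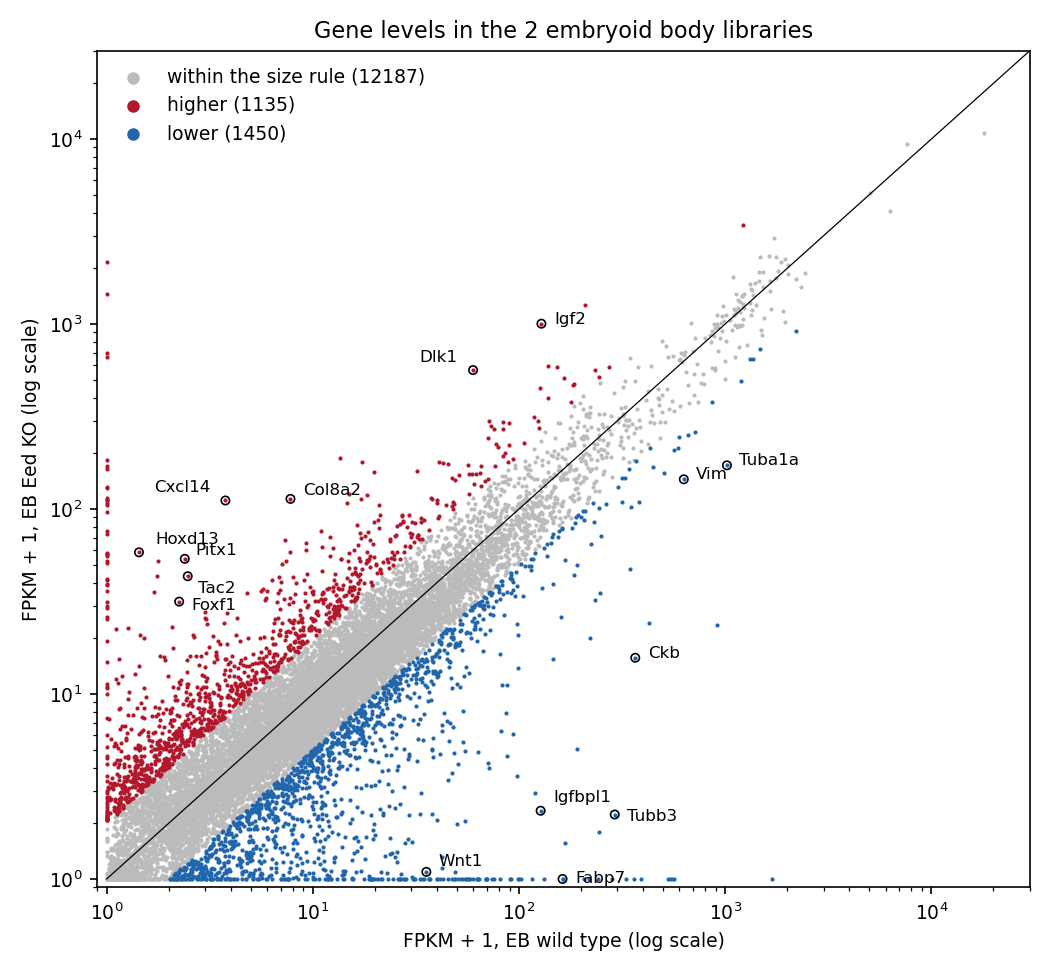
FPKM + 1 of each expressed gene in EB wild type (horizontal, log scale) against the EB labelled KO (vertical, log scale). Each point is 1 gene, coloured by the size rule (1135 higher, 1450 lower), the line marks equal values, and circled genes other than Ckb are named in the text. The points along the lower border are genes listed at or near 0 in the EB labelled KO, Fabp7 among them.

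Cell type markers were compared first. Neuron markers were lower for all 15 expressed genes, with a median of -4.18, and their summed FPKM was 670 in EB wild type and 15.9 in the EB labelled KO. In the EB labelled KO 5 of the 15 were under an FPKM of 0.1, against 0 in EB wild type. Neural progenitor markers were lower for 11 of 13 and higher for 0 (median -2.72), with sums of 336 and 32.5. The wild-type EBs thus held neural RNA that the EB labelled KO largely lacked, and in bulk RNA fewer cells of a type and less RNA per cell cannot be told apart.

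Pluripotent cell markers were also lower in the EB labelled KO, for 10 of 12 genes with 0 higher (median -1.77), with sums of 250 in EB wild type and 32.0 in the labelled KO, after 3509 and 4841 in the ES libraries. Pou5f1, the core pluripotency factor, had an FPKM of 586 in wild-type ES cells, 540.1 in the ES labelled KO, 20.8 in EB wild type and 1.21 in the EB labelled KO. Both EB libraries were far below both ES libraries, and the labelled KO was the lowest. Germ cell markers were lower for 3 of 10 and higher for 0 (sums 16.95 and 9.69), and for 1 of 8 without the shifted chromosomes.

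Several markers of mesenchyme and most markers of epithelium were higher instead. Mesenchyme markers were higher for 5 of 13 and lower for 0 (median 0.90), for 8 of 13 under each of the 3 rescalings and for 3 of 10 without the shifted chromosomes, and their sum was 1208 in EB wild type and 2180 in the labelled KO. Epithelium markers were higher for 9 of 13 and lower for 0 (median 1.25), with sums of 155 and 429. The visceral and parietal endoderm list had only 8 of its 16 genes expressed, 4 higher and 0 lower (sums 540 and 877). The higher ones were Rbp4, Amn, Lamb1 and Col4a2, while the yolk sac and liver genes Afp, Apoa1, Apob and Hnf4a were under an FPKM of 1 in both EB libraries. Trophoblast markers had 3 higher and 0 lower of 8 (sums 13.03 and 86.5). These were Hand1 (0.782 and 51.2), Gata3 (3.87 and 18.98) and Plac1 (1.702 and 6.29), of which Hand1 and Gata3 also mark other tissues. Elf5, Cdx2 and Eomes were under an FPKM of 1 in both EB libraries, and the placental hormone gene Prl3d1 was listed at 0 in both. Of the 7 cardiomyocyte markers expressed, 2 were higher and 1 lower (sums 6.52 and 33.75). The higher ones were Tnni1 (1.63 and 19.8) and Nkx2-5 (0.276 and 9.31), and the lower one was Actc1 (1.49 and 0.206). Tnnt2, Myh6, Myh7, Myl2 and Nppa were under an FPKM of 1 in both EB libraries. The part of these marker differences in any gene list below was not tested.

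**Figure D2:**
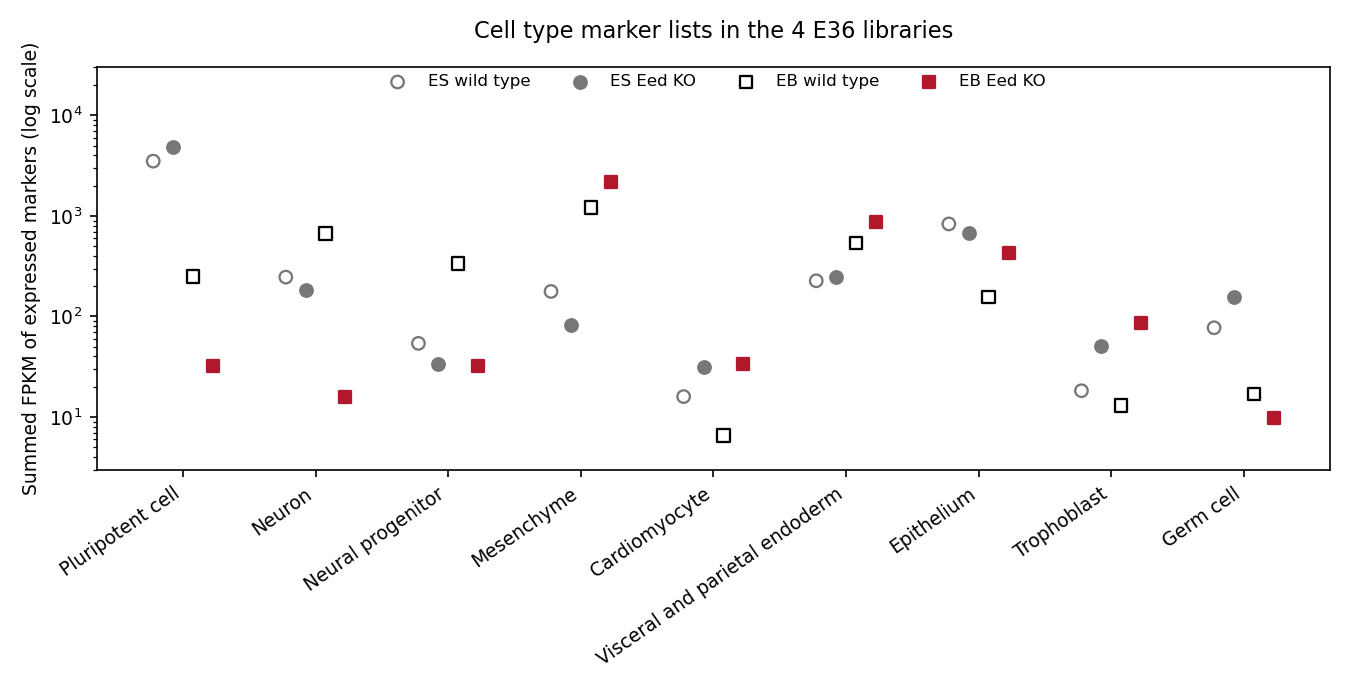
Summed FPKM (vertical, log scale) of the expressed members of each cell type marker list in the 4 E36 libraries, 1 library per group and so without error bars. Neuron, neural progenitor and pluripotent cell sums are lower in the EB labelled KO (filled square) than in EB wild type (open square), and mesenchyme, epithelium and trophoblast sums are higher.

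Among the largest decreases were genes that wild-type EBs switch on from almost nothing. Fabp7, a fatty acid binding protein of radial glia, had an FPKM of 0.289 in wild-type ES cells, 0.338 in the ES labelled KO and 162 in EB wild type, and the EB labelled KO listed it at 0. Igfbpl1, a secreted IGF-binding-like protein, had 1.63 in wild-type ES cells, 2.59 in the ES labelled KO, 126 in EB wild type and 1.34 in the EB labelled KO, and Scrt2, a neuronal repressor of the Snail family, had 0.145 in wild-type ES cells, 0.1099 in the ES labelled KO, 29.2 in EB wild type and 0.0194 in the EB labelled KO. For these 3 genes only EB wild type was high and the EB labelled KO was at or near the ES level. Others were already transcribed in ES cells. Tubb3, the neuronal beta-tubulin, had 62.4 in wild-type ES cells, 70.2 in the ES labelled KO, 290.2 in EB wild type and 1.23 in the EB labelled KO, a difference of -7.03. Rtn1, a neuronal reticulon of the endoplasmic reticulum, had 3.32 in wild-type ES cells, 8.64 in the ES labelled KO, 53.7 in EB wild type and 1.06 in the EB labelled KO (-4.73). The EB labelled KO was the lowest of the 4 libraries for both genes. The imprinted genes Meg3 and Rian, non-coding RNAs of one region of chromosome 12, and Nnat, a neuronal proteolipid gene, were different again, since they were lower in both labelled KO libraries. Nnat had 30.4 in wild-type ES cells, 0.771 in the ES labelled KO, 167 in EB wild type and 0.557 in the EB labelled KO.

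The largest increases were mostly patterning genes and secreted proteins, led by the posterior HOX gene Hoxd13 (5.34). Cxcl14, a chemokine of epithelium and mesenchyme, had 0.858 in wild-type ES cells, 3.54 in the ES labelled KO, 2.77 in EB wild type and 110.2 in the EB labelled KO (4.88). Barx1, a homeobox gene of the stomach wall and branchial arches, had 0.558 in wild-type ES cells, 6.32 in the ES labelled KO, 0.759 in EB wild type and 42.6 in the EB labelled KO (4.63). Pitx1, the hindlimb homeobox gene, had 0.0389 in wild-type ES cells, 1.14 in the ES labelled KO, 1.39 in EB wild type and 52.8 in the EB labelled KO (4.49). These genes were higher in both labelled KO libraries than in the wild type of the same stage. Others were low in both ES libraries and passed the size rule in EBs alone. Col8a2, a short-chain collagen, had 0.942 in wild-type ES cells, 0.5403 in the ES labelled KO, 6.79 in EB wild type and 112 in the EB labelled KO (3.86). Tac2, the neurokinin B precursor, had 0.0629 in wild-type ES cells, 0.204 in the ES labelled KO, 1.47 in EB wild type and 42.3 in the EB labelled KO (4.13), and Fmod, the proteoglycan fibromodulin, had 0 in wild-type ES cells, 0.02102 in the ES labelled KO, 0.454 in EB wild type and 19.96 in the EB labelled KO (3.85).

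By level, the most abundant genes of each direction were of different kinds. Igf2, an imprinted fetal growth factor, had 10.8 in wild-type ES cells, 25.9 in the ES labelled KO, 127 in EB wild type and 1003 in the EB labelled KO, and Dlk1, an imprinted Notch-like membrane protein, had 1.41 in wild-type ES cells, 1.44 in the ES labelled KO, 58.9 in EB wild type and 563 in the EB labelled KO. Both reached their highest level in the EB labelled KO, with differences of 2.97 and 3.24. Gpc3, a heparan sulfate proteoglycan of mesoderm and liver, had 243 and 514 in EB wild type and the EB labelled KO. Among abundant genes that were lower, the intermediate filament gene Vim had 117 in wild-type ES cells, 50.1 in the ES labelled KO, 629 in EB wild type and 144 in the EB labelled KO (-2.12). The proline isomerase Ppia had 2196 and 915 in the 2 EB libraries, thymosin beta 4 (Tmsb4x) had 1370.4 and 648 and the glycolytic enolase Eno1 had 657 and 248.7. Ppia lies on chromosome 11, and Tmsb4x was within the size rule under each of the 3 rescalings.

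Promoter sequences are shown for 4 of these genes, 2 higher and 2 lower, because CG dinucleotides are the sequence feature through which PRC2 is known to select promoters. Each is the 250 bases before the annotated start in gene orientation, from the RefSeq table of GRCm38.p6, with each CG in capitals. Over all 32851 promoter windows of that table, 92.1% held at least 1 CG in these 250 bases, with a median of 6 and quartiles of 2 and 16. Hoxd13 (chr2:74667975-74668224, plus strand) held 31 CG dinucleotides and Barx1 (chr13:48662786-48663035, plus strand) held 40. Fabp7 (chr10:57784673-57784922, plus strand) held 4 and Tubb3 (chr8:123411303-123411552, plus strand) held 21.
Hoxd13: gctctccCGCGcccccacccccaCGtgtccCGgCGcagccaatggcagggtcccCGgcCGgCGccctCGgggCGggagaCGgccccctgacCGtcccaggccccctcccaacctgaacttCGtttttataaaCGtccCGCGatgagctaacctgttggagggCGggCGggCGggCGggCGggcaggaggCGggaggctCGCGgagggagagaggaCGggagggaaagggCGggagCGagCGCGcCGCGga
Barx1: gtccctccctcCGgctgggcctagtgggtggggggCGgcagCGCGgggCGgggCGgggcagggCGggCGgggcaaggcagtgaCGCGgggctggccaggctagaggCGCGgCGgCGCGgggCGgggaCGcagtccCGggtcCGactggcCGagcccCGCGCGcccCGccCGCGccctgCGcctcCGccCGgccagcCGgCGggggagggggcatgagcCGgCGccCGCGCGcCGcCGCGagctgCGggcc
Fabp7: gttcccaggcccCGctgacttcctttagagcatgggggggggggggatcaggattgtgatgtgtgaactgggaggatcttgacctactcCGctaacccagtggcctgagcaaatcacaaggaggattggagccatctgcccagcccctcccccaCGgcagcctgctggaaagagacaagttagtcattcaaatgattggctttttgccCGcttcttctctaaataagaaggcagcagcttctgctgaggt
Tubb3: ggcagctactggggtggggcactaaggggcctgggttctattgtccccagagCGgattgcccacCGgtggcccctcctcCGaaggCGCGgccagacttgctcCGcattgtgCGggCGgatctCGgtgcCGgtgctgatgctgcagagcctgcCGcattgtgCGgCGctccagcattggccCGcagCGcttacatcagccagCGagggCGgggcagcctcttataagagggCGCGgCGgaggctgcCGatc
Both promoters of higher genes shown and that of Tubb3 lay above the upper quartile of all windows, and that of Fabp7 lay below the median. Expressed genes with a window held more, with a median of 22 and quartiles of 14 and 30 in 300 bases, 50 of them after the start. On that measure Hoxd13 held 37 and Barx1 50, above the upper quartile, Tubb3 held 26, within the quartiles, and Fabp7 held 6, below the lower one. High and low CG content occurred in both directions beyond these 4. Among higher genes, the 250-base window of Cxcl14 held 16, and the 300-base windows of Tac2 and Fmod, which add 50 bases after the start, held 3 each. Among lower genes, that of Map2, the neuronal microtubule-associated protein, held 37. Only 75.8% of expressed genes, 70.7% of higher and 69.5% of lower genes had a window in the table, below the 80% needed, so a comparison of promoter CG content between higher and lower genes is void and none is given.

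Proneural factors and several groups of genes that act in neurons were lower, whereas factors of neuronal subtype and region were mixed. Of 14 proneural basic helix-loop-helix factors, which commit progenitors to the neuronal fate, 11 were lower and 1 was higher (median -2.97). Neurog2 had an FPKM of 0.0622 in wild-type ES cells, 0.03298 in the ES labelled KO, 11.7 in EB wild type and 0.291 in the EB labelled KO (-3.30). Atoh1 had 15.3 and 0.0962 in EB wild type and the labelled KO, and Nhlh1 had 23.9 and 1.42. Each of these was low in both ES libraries and high in wild-type EBs alone. Atoh8, a member with roles outside the nervous system, was the exception with 2.43 and 10.3. Without chromosomes 3, 6, 11 and Y, 6 of the 8 remaining were lower and 0 higher.

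Transcription factors that specify spinal cord and hindbrain neurons split, with 12 lower and 7 higher of 29 expressed (median 0.36). Barhl1, a factor of dorsal interneurons, had 2.82e-06 in wild-type ES cells, 0.0602 in the ES labelled KO, 18.3 in EB wild type and 2.32e-06 in the EB labelled KO (-4.27). Pou4f1, a sensory neuron factor on distal chromosome 14, had 11.2 and 0.102 in the EB libraries, and Uncx, expressed in the neural tube and in somites, had 14.8 and 0.382. In contrast, Isl2, a motor neuron LIM homeobox gene, had 0.294 in wild-type ES cells, 1.34 in the ES labelled KO, 0.232 in EB wild type and 5.75 in the EB labelled KO (2.45), and Tlx1, a homeobox gene of dorsal interneurons and spleen, had 0.342 and 6.65. The sums over the list were 136 in EB wild type and 89.6 in the labelled KO. The lower members named were abundant in wild-type EBs, whereas Isl2 and Tlx1 were under an FPKM of 1 there.

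Among anterior neural regional factors more genes were higher than lower. Of 22 expressed genes of forebrain, midbrain and eye, 11 were higher and 3 lower (median 1.00, 9 and 3 of 19 without the shifted chromosomes). Otx1, a forebrain and midbrain homeobox gene, had 0.253 in wild-type ES cells, 0.986 in the ES labelled KO, 0.1902 in EB wild type and 5.74 in the EB labelled KO (2.50). Six3, a factor of eye and anterior forebrain, had 0.176 in wild-type ES cells, 0.578 in the ES labelled KO, 0.1396 in EB wild type and 4.14 in the EB labelled KO (2.17). The levels were low, and for both genes the EB labelled KO was the highest of the 4 libraries. Lmx1a, a roof plate and midbrain factor, had 5.37 and 0.8096 and Pax5, of the midbrain-hindbrain border, had 1.62 and 0.0399, so these were higher in wild type.

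Downstream neuronal lists had few or no higher members. RNA-binding proteins of neuronal splicing and mRNA stability were lower for 12 of 18 and higher for 0 (median -1.52). Elavl4, which stabilises neuronal mRNAs, had 0.195 in wild-type ES cells, 0.441 in the ES labelled KO and 16.6 in EB wild type, and the EB labelled KO listed it at 0. Elavl3 had 17.7 and 0.0315 in the EB libraries, and Srrm4, which drives neuronal microexon splicing, had 9.09 and 0.234. Neuronal adhesion molecules were lower for 9 of 20 and higher for 1 (median -0.95, 6 and 0 of 12 without the shifted chromosomes). Cntn2, the axonal contactin, had 0.891 in wild-type ES cells, 1.04 in the ES labelled KO, 48.8 in EB wild type and 0.974 in the EB labelled KO (-4.66). Wild-type EBs were the single high library for Elavl4 and Cntn2.

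Genes of the synapse and of excitability followed. Synaptic vesicle genes were lower for 14 of 24 and higher for 1 (median -1.24). Snap25, a SNARE protein of vesicle fusion, had 0.439 in wild-type ES cells, 0.344 in the ES labelled KO, 18.2 in EB wild type and 1.21 in the EB labelled KO (-3.12), and Slc17a6, the vesicular glutamate transporter, had 9.05 and 0.0769 in the EB libraries. The higher one was Sv2a, a vesicle glycoprotein, with 7.44 and 23.5, which lies on chromosome 3 between 90 and 110 Mb, a segment shifted upward as a whole. Neurotransmitter receptors were lower for 9 of 18 and higher for 1 (median -0.80, 6 and 0 of 13 without the shifted chromosomes). Chrna4, a nicotinic receptor subunit, had 16.3 and 1.304, and Glra1, a glycine receptor subunit, had 6.59 in EB wild type, while the labelled KO listed it at 0. Voltage-gated channels were lower for 5 of 18 and higher for 2 (median -0.59), including the sodium channel Scn3a (10.5 and 0.654) among the lower and the potassium channel Kcna1 (0.368 and 3.61) among the higher. The share of members that were lower was larger in the vesicle list than in the channel list, and all 3 exceeded the background of 9.82%.

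Axon guidance genes, many of which also act outside the nervous system, were mixed. Of 41 expressed, 10 were lower and 5 higher (median 0.07). Without the shifted chromosomes 8 were lower and 2 higher of 31, and the median turned to -0.30. Robo3, the receptor that lets commissural axons cross the midline, had 0.261 in wild-type ES cells, 0.392 in the ES labelled KO, 21.8 in EB wild type and 0.0786 in the EB labelled KO (-4.40), and Dcc, the netrin receptor, had 21.3 and 0.336 in the EB libraries. The ligand Slit1 was lower (16.99 and 0.285) whereas its relative Slit3 was higher (10.2 and 34.1). Efna1, an ephrin also found in epithelium and vessels, was the largest increase of the list with 2.69 and 23.1. Of the 5 higher genes, 3 lie on the shifted chromosomes. Glial genes had 3 lower and 1 higher of 16, and neuropeptides had 7 lower and 3 higher of 17 (median -0.19). Without the shifted chromosomes neuropeptides had 5 lower and 3 higher of 15, and their median turned to 0.03. Sst, the somatostatin precursor, was among the lower ones with 24.3 and 4.13.

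**Figure D3:**
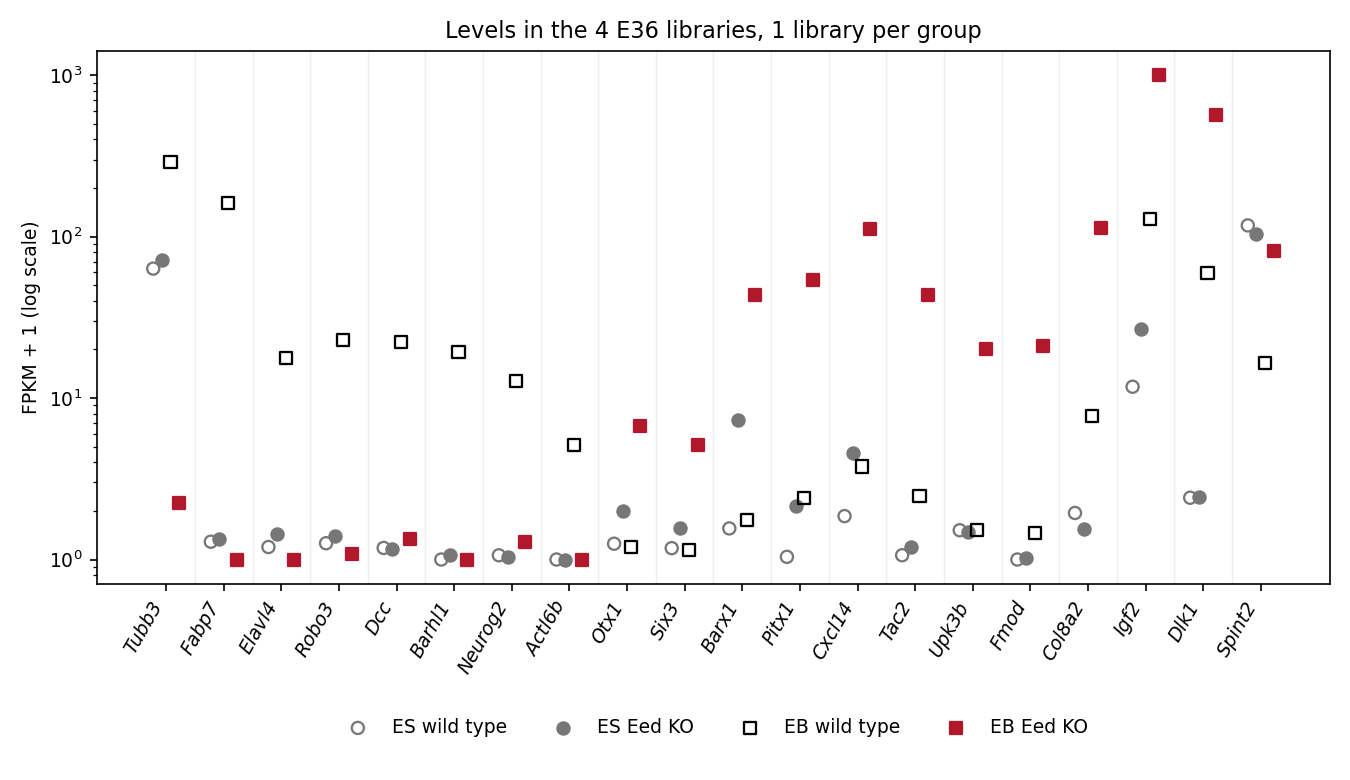
FPKM + 1 (vertical, log scale) of 20 genes named in the text in the 4 E36 libraries, 1 library per group. For Fabp7, Elavl4, Robo3, Dcc, Barhl1 and Neurog2 only EB wild type (open square) is high, and from Otx1 to Fmod the EB labelled KO (filled square) is the highest.

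Tubulins, the subunits of microtubules, were lower as a family. Of 16 expressed, 11 were lower and 0 higher (median -1.32), and the family's summed FPKM was 4293 in EB wild type and 1129.8 in the EB labelled KO, against 3814 and 3303 in the ES libraries. The pseudogene Tubb2a-ps2, which is not counted, had 69.5 and 3.26. Tuba1a, the main alpha-tubulin of young neurons, had 604 in wild-type ES cells, 518 in the ES labelled KO, 1019 in EB wild type and 171 in the EB labelled KO (-2.57), and Tubb2b, a neuronal beta-tubulin, had 98.5 in wild-type ES cells, 112 in the ES labelled KO, 425 in EB wild type and 23.3 in the EB labelled KO (-4.13). Not only neuronal members were lower. Tubb5, expressed in most dividing cells, had 813 in wild-type ES cells, 602 in the ES labelled KO, 861 in EB wild type and 377 in the EB labelled KO (-1.19). The alpha-tubulins Tuba1a, Tuba1b and Tuba1c are near-identical copies, so their division among genes is uncertain. Subunits of the BAF chromatin remodelling complex were lower for 5 of 27 and higher for 0 (median -0.55), among them Actl6b, the subunit specific to neurons, with 4.11 in EB wild type and a listing of 0 in the remaining 3 libraries. Smarca4, an ATPase of the complex in all cells, had 19.4 and 7.84, and summed over its transcripts it did not pass the size rule.

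**Figure D4:**
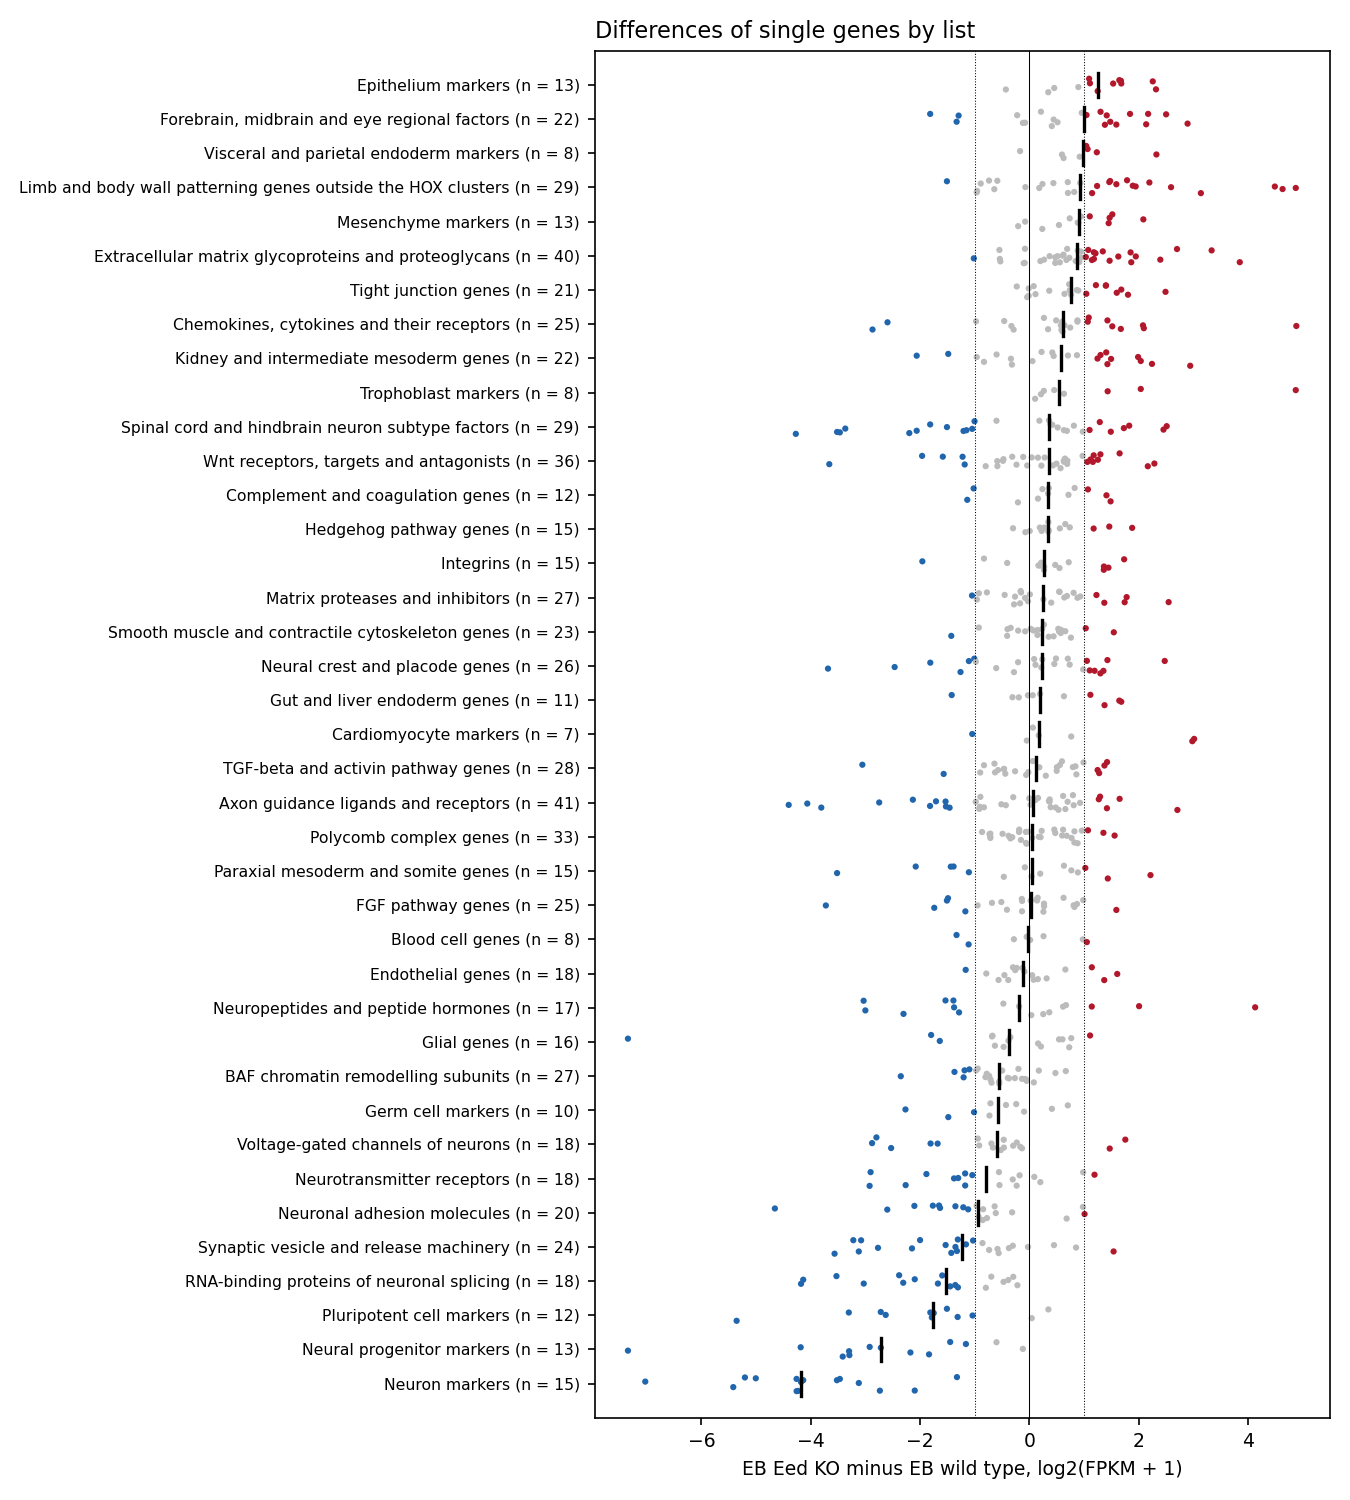
Difference of log2(FPKM + 1), EB labelled KO minus EB wild type (horizontal), for each expressed gene of the fixed lists (rows, with the number of expressed genes). Each point is 1 gene, red if higher and blue if lower by the size rule (dotted lines), and the black bar is the list's median. Medians run from -4.18 for neuron markers to 1.25 for epithelium markers.

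Neural crest and placode genes split without a common direction, with 7 higher and 6 lower of 26 (median 0.23). Ednrb, the endothelin receptor of migrating crest, had 0.118 in wild-type ES cells, 0.0249 in the ES labelled KO, 13.3 in EB wild type and 0.1102 in the EB labelled KO (-3.68) and lies on distal chromosome 14, and Tfap2b had 9.66 and 0.929 in the EB libraries. The craniofacial mesenchyme factor Alx4 was higher (3.44 and 10.3). Sox factors, which act in stem, neural and crest cells, were lower for 8 of 14 and higher for 1 (5 and 1 of 10 without the shifted chromosomes). Sox4 had 165 and 52.2 and Sox11 had 79.2 and 35.7, both factors of neuronal differentiation, while Sox8 was higher with 0.511 and 2.45.

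Paraxial mesoderm genes, which form somites, had 5 lower and 3 higher of 15 (median 0.04). Pax3, of the dermomyotome, had 10.04 and 1.61 in EB wild type and the labelled KO and Meox1 had 6.16 and 1.64. Pax9 and Nkx3-2, both factors of the sclerotome that gives rise to vertebrae, had 0.237 and 4.75 and 0.0258 and 1.77. Pax3 and Meox1 were thus higher in wild type, and Pax9 and Nkx3-2 were higher in the labelled KO. Uncx, given above and also expressed in somites, was higher in wild type.

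Limb and body wall patterning genes outside the HOX clusters were higher for 14 of 29 and lower for 1 (median 0.93). Without the shifted chromosomes 7 of 20 were higher and 1 lower. Hand1, a factor of lateral mesoderm, heart and trophoblast, had 2.26 in wild-type ES cells, 18.4 in the ES labelled KO, 0.782 in EB wild type and 51.2 in the EB labelled KO (4.87). Tbx15, a T-box factor of limb and body wall mesenchyme, had 0.219 in wild-type ES cells, 2.55 in the ES labelled KO, 0.818 in EB wild type and 14.99 in the EB labelled KO (3.14). Both were higher in the labelled KO at the ES stage as well, and 8 genes of the list were higher and 1 lower between the ES libraries. All 6 expressed Dlx genes, homeobox factors of branchial arches, limb and forebrain, were higher (median 1.65), of which 4 lie on chromosomes 6 or 11. Dlx2 on chromosome 2 had 0.179 in wild-type ES cells, 0.769 in the ES labelled KO, 0.736 in EB wild type and 6.63 in the EB labelled KO (2.14). T-box factors were higher for 5 of 10 and lower for 0 (3 of 7 without the shifted chromosomes). Tbx20, of heart and lateral mesoderm, had 1.16 in wild-type ES cells, 1.75 in the ES labelled KO, 0.927 in EB wild type and 14.3 in the EB labelled KO (2.99).

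Kidney and intermediate mesoderm genes were higher for 9 of 22 and lower for 2 (median 0.57, 7 and 1 of 18 without the shifted chromosomes). Wt1, a factor of kidney and of mesothelium, had 8.03 in wild-type ES cells, 4.05 in the ES labelled KO, 6.69 in EB wild type and 29.5 in the EB labelled KO (1.99). Six2, of nephron progenitors, had 2.38 and 14.98 in the EB libraries, and Npnt, the matrix ligand nephronectin, had 1.66 and 19.4. Lhx1 and Pax8, factors of the nephric duct and tubule, went the other way with 9.02 and 1.399 and 2.51 and 0.254. Lhx1 is also an interneuron factor.

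Forkhead factors were higher for 13 of 36 and lower for 0 (median 0.32), and for 11 of 28 without the shifted chromosomes. Foxf1, of splanchnic mesoderm, had 0.308 in wild-type ES cells, 0.867 in the ES labelled KO, 1.25 in EB wild type and 30.6 in the EB labelled KO (3.81), and the related Foxf2 had 0.473 and 7.96 in the EB libraries. The endoderm factors Foxa1 (1.301 and 4.97) and Foxa2 (0.863 and 3.04) were higher as well, although at low levels. Between the ES libraries only 1 forkhead gene was higher and 1 lower. Whether the forkhead differences of EBs and ES cells differ was not tested.

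Genes of the extracellular matrix were often higher. Glycoproteins and proteoglycans of the matrix were higher for 16 of 40 and lower for 1 (median 0.87), with sums of 1497 and 2597, and 14 of 34 were higher without the shifted chromosomes. Fbln2, a fibulin of elastic matrix, had 0.709 in wild-type ES cells, 2.65 in the ES labelled KO, 8.29 in EB wild type and 59.4 in the EB labelled KO (2.70). Eln, elastin itself, had 2.53 and 17.6 in the EB libraries, and Matn4, a matrilin of cartilage, had 0.135 and 10.4. Of the 33 expressed collagens, 12 were higher and 3 lower (median 0.89, 8 and 3 of 27 without the shifted chromosomes), with sums of 1071 and 2342. The fibrillar collagen Col5a1 had 6.73 in wild-type ES cells, 6.78 in the ES labelled KO, 39.1 in EB wild type and 111 in the EB labelled KO (1.49), and the basement membrane collagen Col4a2 had 9.78 in wild-type ES cells, 21.4 in the ES labelled KO, 29.1 in EB wild type and 69.8 in the EB labelled KO (1.23). Col14a1, a collagen that binds fibril surfaces, was among the lower ones with 39.4 and 11.5.

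Laminins, the network of basement membranes, were higher for 5 of 8 and lower for 1, all outside the shifted chromosomes. Lama5, of epithelial basement membranes, had 35.04 in wild-type ES cells, 29.9 in the ES labelled KO, 8.04 in EB wild type and 40.1 in the EB labelled KO (2.19), whereas Lama4, of vessels and nerve, had 7.45 and 2.19 in the EB libraries. For Lama5, EB wild type was the lowest of the 4 libraries and the labelled KO remained near the ES level. Matrix proteases and their inhibitors were higher for 5 of 27 and lower for 1 (median 0.26). Timp3, an inhibitor of metalloproteinases, had 11.1 and 69.8 and Mmp9, a gelatinase, had 3.47 and 14.3. Integrins were higher for 4 of 15 and lower for 1. Itga7 had 0.381 and 3.59 and Itga11 had 0.341 and 2.45, whereas Itgb8, of neural and epithelial cells, had 5.38 and 0.642. Smooth muscle and contractile genes showed less, with 2 higher and 1 lower of 23 (median 0.23).

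Several epithelial genes were higher in the labelled KO than in wild-type EBs, but keratins as a family were mixed. Spint2, a membrane protease inhibitor of epithelia, had 116 in wild-type ES cells, 103 in the ES labelled KO, 15.4 in EB wild type and 80.9 in the EB labelled KO (2.32). Epcam, an epithelial adhesion molecule, had 107 in wild-type ES cells, 91.3 in the ES labelled KO, 10.98 in EB wild type and 36.5 in the EB labelled KO (1.64). Krt18, a keratin of simple epithelia, had 77.6 in wild-type ES cells, 55.9 in the ES labelled KO, 28.2 in EB wild type and 92.2 in the EB labelled KO (1.67). Both ES libraries were high for these genes, EB wild type was the lowest of the 4, and the EB labelled KO lay above it. For Krt18 the EB labelled KO was also above both ES libraries. The classical epithelial cadherin Cdh1 was likewise lowest in EB wild type, with 197 in wild-type ES cells, 205 in the ES labelled KO, 13.5 in EB wild type and 33.3 in the EB labelled KO (1.25). Of the 10 expressed keratins, 2 were higher and 1 lower (median -0.04). The lower one was Krt5, of stratified epithelia, with 4.96 and 1.54 in the EB libraries, and Krt19, on chromosome 11, had 25.03 and 18.3 (-0.43).

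Tight junction genes were higher for 8 of 21 and lower for 0 (median 0.76). Cldn6, a claudin of embryonic epithelia, had 61.7 in wild-type ES cells, 66.6 in the ES labelled KO, 17.3 in EB wild type and 57.7 in the EB labelled KO (1.68). F11r, a junctional adhesion molecule, had 11.9 and 38.1 in the EB libraries, and Cgn, cingulin, had 2.46 and 18.4 and lies in the shifted segment of chromosome 3. Uroplakins, membrane proteins of urothelium and mesothelium, were higher for 3 of 5, with Upk3b at 0.518 in wild-type ES cells, 0.479 in the ES labelled KO, 0.524 in EB wild type and 19.1 in the EB labelled KO (3.72). Cdh3, a cadherin of placenta and epidermis, had 13.7 in wild-type ES cells, 28.5 in the ES labelled KO, 6.29 in EB wild type and 67.1 in the EB labelled KO (3.22). For Upk3b and Cdh3 the EB labelled KO was the highest of the 4 libraries. Of the gut and liver endoderm list only 11 of 26 genes were expressed, with 4 higher and 1 lower. The higher ones were Foxa1, Foxa2, Cldn6 and Epcam, of which Cldn6 and Epcam are also on the epithelium list. Afp, Alb, Ttr, Apoa1, Hnf4a and Sox17 were under an FPKM of 1 in both EB libraries.

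Among signalling pathways, several showed opposite changes in different components. Of 25 FGF pathway genes, 1 was higher and 5 lower (median 0.02, 1 and 3 of 19 without the shifted chromosomes). Fgf15, a ligand of the developing brain, had 8.47 in wild-type ES cells, 8.11 in the ES labelled KO, 28.4 in EB wild type and 1.22 in the EB labelled KO (-3.72), and Spry2, a feedback inhibitor of FGF signalling on distal chromosome 14, had 12.4 and 2.999 in the EB libraries. Fgf10, the ligand of limb and lung mesenchyme, was higher with 0.468 and 3.42. Of 36 Wnt receptors, targets and antagonists, 9 were higher and 5 lower (median 0.36, 5 and 4 of 25 without the shifted chromosomes). The receptor Fzd10 had 6.19 in wild-type ES cells, 6.87 in the ES labelled KO, 46.1 in EB wild type and 2.72 in the EB labelled KO (-3.66) and the feedback target Axin2 had 25.7 and 5.84. The secreted antagonists Frzb (2.82 and 17.7) and Dkk3 (6.24 and 31.5) were higher. The ligand gene Wnt1, a signal of the dorsal neural tube that is outside this list, had 0.02099 in wild-type ES cells, 0.0478 in the ES labelled KO, 34.5 in EB wild type and 0.0921 in the EB labelled KO (-5.02).

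Of 15 Hedgehog pathway genes 3 were higher and 0 lower. Gli1, a transcriptional target of the pathway, had 20.3 in wild-type ES cells, 7.11 in the ES labelled KO, 1.88 in EB wild type and 9.58 in the EB labelled KO (1.88), the ligand Shh had 1.07 and 4.69 in the EB libraries, and the inhibitor Hhip had 1.398 and 4.41. TGF-beta and activin pathway genes had 4 higher and 2 lower of 28. The ligand Tgfb3 had 6.33 and 18.6 and the inhibitory Smad6 had 12.2 and 30.8. Id4, a target of BMP signalling in neural progenitors, had 37.1 and 3.58 (-3.06), the largest decrease on that list.

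Chemokines, cytokines and their receptors were higher for 8 of 25 and lower for 2 (median 0.61, 5 and 1 of 18 without the shifted chromosomes), and their sum was 174 in EB wild type and 447 in the labelled KO. Cxcl12 had 0.936 in wild-type ES cells, 1.91 in the ES labelled KO, 19.6 in EB wild type and 85.998 in the EB labelled KO (2.08), and its receptor Cxcr4 had 0.614 in wild-type ES cells, 1.23 in the ES labelled KO, 14.4 in EB wild type and 1.11 in the EB labelled KO (-2.87). The ligand and its receptor thus lay in opposite directions. Of 18 expressed heavy chain genes of MHC class I, which present peptides at the cell surface, 12 were higher and 1 lower (median 1.27), all on chromosome 17. H2-K1 had 25.7 in wild-type ES cells, 26.9 in the ES labelled KO, 25.4 in EB wild type and 82.4 in the EB labelled KO (1.66) and H2-D1 had 14.2 in wild-type ES cells, 13.1 in the ES labelled KO, 17.2 in EB wild type and 49.8 in the EB labelled KO (1.48). Their copies are near identical, so the division of reads among the genes of the H2-Q group is uncertain. The sum over the family was 89.96 in EB wild type and 303 in the EB labelled KO, against 97.99 and 103 in the ES libraries.

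Other lists of mesodermal derivatives showed little. Endothelial genes, with a median of -0.11, had 3 higher and 1 lower of 18, and the endothelial cadherin Cdh5 was the lower one with 1.401 and 0.0699. Only 8 of 24 blood cell genes were expressed, 1 higher and 2 lower, and the median of -0.02 became positive under each of the 3 rescalings. Complement and coagulation genes had 3 higher and 2 lower of 12, and the 3 higher ones lie on the shifted chromosomes.

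Genes of general cell functions mostly stayed within the size rule. Polycomb genes had 3 higher and 0 lower of 33 (median 0.05). The higher count was 5 of 33 under each of the 3 rescalings, and 1 of 20 without the shifted chromosomes, where the median was -0.06. Bmi1, a PRC1 subunit, had 2.53 in wild-type ES cells, 10.6 in the ES labelled KO, 10.7 in EB wild type and 28.96 in the EB labelled KO (1.35). Proteasome core genes had 3 higher and 4 lower of 25, but without the shifted chromosomes 0 higher and 1 lower of 18. Mitochondrial ribosomal proteins were lower for 12 of 78 and higher for 0, and for 3 of 55 without the shifted chromosomes. Cytosolic ribosomal proteins had 0 higher and 4 lower of 80. All 46 expressed genes of respiratory complex I were within the size rule. They were set by a symbol pattern that takes in assembly factors beside subunits. Sterol and fatty acid synthesis genes had 3 higher and 1 lower of 23, lysosomal genes 2 and 1 of 27, and DNA replication and mitosis genes 0 and 2 of 30. Proteasome genes, mitochondrial ribosomal proteins and complex I genes had medians of -0.61, -0.52 and -0.41, below the -0.14 of all genes. The median of replication genes was -0.25, and those of cytosolic ribosomal, sterol and lysosomal genes were 0.07, 0.01 and 0.23. Apart from the mitochondrial ribosomal proteins, each of these groups had at most 4 members called in either direction.

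Position on the genome went with part of the calls. On chromosome 3, 21.7% of expressed genes were higher and 6.73% lower, on chromosome 6 the shares were 17.0% and 7.12%, and on chromosome 11 they were 3.99% and 24.8%. Relative to all genes that reached an FPKM of 5 in any of the 4 libraries, the median difference in EBs was 0.59, 0.52 and -0.54 on these chromosomes, and 0.34, 0.49 and -0.48 in ES cells. Together they held 17.9% of expressed genes, 28.9% of the higher and 27.5% of the lower ones.

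Chromosome 3 was not shifted evenly in EBs. From its start to 90 Mb the relative median was 0.13 over 250 genes, with 19 higher and 26 lower. From 90 to 110 Mb it was 1.29 over 165 genes, with 93 higher (56.4%) and 6 lower, and from 110 Mb to the end it was 0.65 over 140 genes. In ES cells the same segments had 0.32, 0.40 and 0.33, an even shift. The 10 Mb windows of at least 20 genes on other chromosomes ranged from -0.33 to 0.55 in EBs, so the 2 windows from 90 to 110 Mb, at 1.29 and 1.28, lay outside that range. Those of chromosome 3 from 120, 140 and 150 Mb, at 0.63, 0.75 and 0.96, also lay above it. Windows of the same minimum on chromosome 6 ranged from 0.34 to 0.75 and those of chromosome 11 from -0.67 to -0.29. The borders of the segment were chosen after its values were seen, and positions are mm9 positions as deposited.

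The far end of chromosome 14 was lower in both comparisons. Beyond 90 Mb its 49 genes that reached an FPKM of 5 had a relative median of -0.83 in EBs and -0.75 in ES cells, with 25 lower in EBs and 18 lower in ES cells. The rest of chromosome 14 had 0.06 and -0.00396 over 340 genes. By 10 Mb window it was -0.72 over 7 genes from 90 Mb, -1.13 over 16 from 100 Mb, -0.17 over 11 from 110 Mb and -1.002 over 15 from 120 Mb in EBs, whereas other windows of 5 to 19 genes outside the shifted chromosomes ranged from -0.55 to 0.53. Of its 63 expressed genes 29 were lower and 2 higher in EBs, and 8 were lower at both stages. Leaving this stretch out removed 1 lower gene each from the lists of spinal cord neuron factors (Pou4f1), neuronal adhesion (Slitrk1), neural crest (Ednrb) and the FGF pathway (Spry2). This border was also chosen after the values were seen.

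The segment from 90 to 110 Mb held 224 expressed genes, 102 of the 1135 higher and 9 of the 1450 lower ones. Its genes have unrelated functions. Psmb4, a proteasome subunit, had 266 in wild-type ES cells, 339.6 in the ES labelled KO, 185 in EB wild type and 471 in the EB labelled KO (1.34), Txnip, a regulator of thioredoxin and glucose uptake, had 52.7 in wild-type ES cells, 93.3 in the ES labelled KO, 70.3 in EB wild type and 298 in the EB labelled KO (2.07), and S100a11, a calcium-binding protein, had 119 in wild-type ES cells, 163 in the ES labelled KO, 117 in EB wild type and 312 in the EB labelled KO (1.41). In each case the EB labelled KO was the highest of the 4 libraries, and the ES difference was smaller and in the same direction. Celf3, a neuronal splicing factor in the same segment, was lower with 15.3 and 0.4103.

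**Figure D5:**
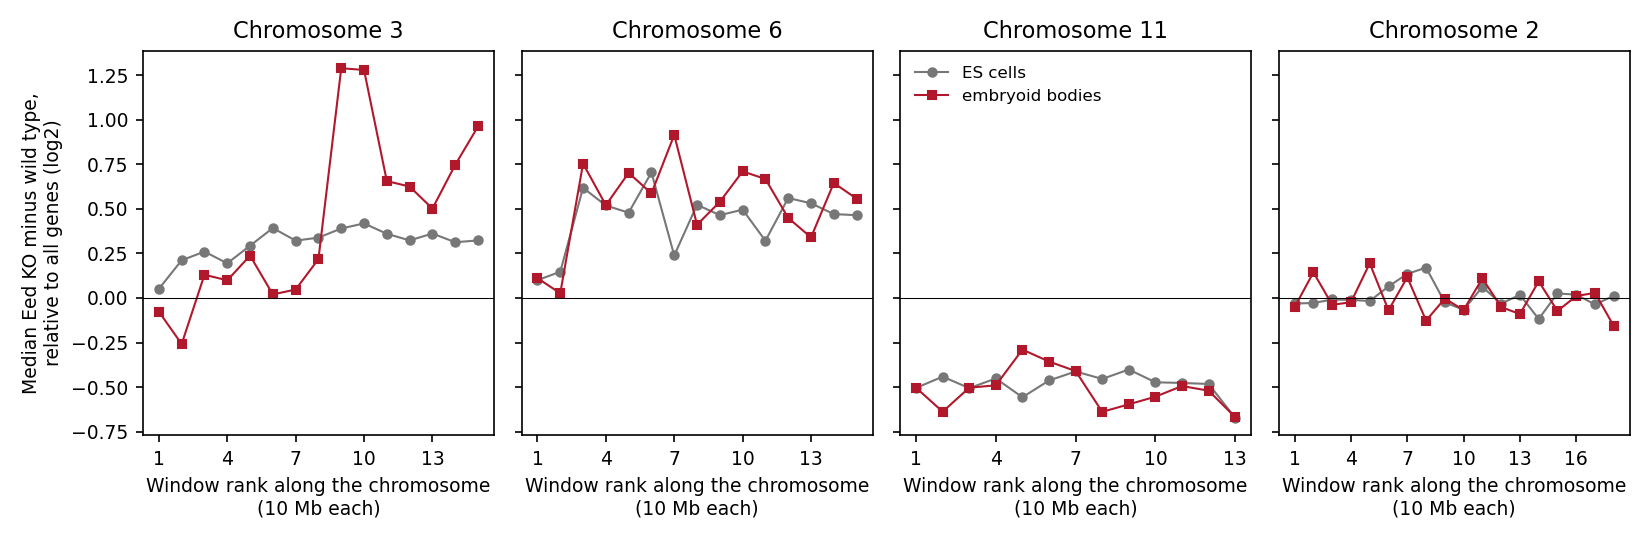
Median difference of log2(FPKM + 1), labelled KO minus wild type, relative to the median of all genes (vertical), in consecutive 10 Mb windows of at least 10 genes (horizontal, rank along the chromosome) for chromosomes 3, 6, 11 and, as an unshifted example, 2. In EBs (squares) the 2 highest windows of chromosome 3 reach 1.29 and 1.28, while ES cells (circles) stay between 0.05 and 0.42 along that chromosome.

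Some neighbouring genes shared a call. Runs of at least 3 expressed neighbours called higher numbered 38, and runs called lower numbered 47. How many runs the background of 7.68% higher and 9.82% lower genes would give was not tested. These counts include higher runs on chromosome 3 and lower runs on chromosome 11, both shifted as blocks. They also include small RNAs of 1 locus, such as Mir106b, Mir25 and Mir93, which are not separate neighbours. The longest lower run was the stretch of 11 genes from Hoxb9 to Snx11 on chromosome 11 (mm9 96132644 to 96638869, 506.2 kb). The longest higher run was 10 genes from Rfx5 to Gabpb2 on chromosome 3 (94758937 to 95021864), inside the segment above. In each HOX cluster a lower and a higher run lay near each other. Beside the lower run of chromosome 11, the 3 genes Hoxb13, Gm53 and Mir196a-1 were higher (96055675 to 96126579). On chromosome 6 the 7 genes from Hoxa2 to Mira were lower and the 6 from Hoxa9 to Hoxa13 were higher, on chromosome 15 the 7 from Hoxc8 to Smug1 were lower and the 5 from Hoxc13 to Hoxc10 higher, and on chromosome 2 the 4 from Hoxd3 to Mir10b were lower and the 5 from Hoxd13 to Hoxd9 higher. Reads of antisense and overlapping transcripts in these clusters cannot be told apart in unstranded libraries.

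Some runs outside the HOX clusters held members of 1 family beside unrelated genes. In the lower stretch of distal chromosome 14 the 6 genes from Clybl to Pcca were lower (122580916 to 123289166), which hold Zic5 and Zic2, zinc finger factors of the neural plate. In the same stretch the 5 genes from Mycbp2 to Obi1 (103512628 to 104921883) hold Ednrb and Pou4f1, and the 3 genes Slitrk1, Slitrk6 and Slitrk5 encode neuronal adhesion proteins. Zic2 had an FPKM of 27.7 in wild-type ES cells, 14.4 in the ES labelled KO, 47.2 in EB wild type and 3.802 in the EB labelled KO (-3.33). On chromosome 13 the forkhead genes Foxf2 and Foxc1 and their neighbour Gmds were higher, and on chromosome 7 the 4 ion transport regulators Fxyd5, Fxyd7, Fxyd1 and Fxyd3 were higher. On chromosome 15 a run of lower genes held the alpha-tubulins Tuba1b, Tuba1a and Tuba1c.

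Most genes called in EBs were not called in ES cells, although shared calls were more frequent than the background. No library is shared between the EB and the ES comparison. Of the 1135 genes higher in EBs, 105 (9.25%) were also higher between the ES libraries, against 2.82% of all genes, which is 25.2% of the 417 higher there against 7.68%. Of the 1450 lower in EBs, 120 (8.28%) were also lower in ES cells, against 3.01% of all genes, which is 26.97% of the 445 lower there against 9.82%. Opposite calls were given to 39 genes higher in EBs (3.44%, against 3.01% of all genes) and 43 lower in EBs (2.97%, against 2.82%). Pearson's r of the EB and ES differences was 0.16 across 14772 genes, which are not independent replicates. These counts and r include the regions shifted as blocks, which moved in the same direction at both stages. Relative medians on chromosomes 3, 6 and 11 were 0.59, 0.52 and -0.54 in EBs and 0.34, 0.49 and -0.48 in ES cells. On distal chromosome 14 they were -0.83 and -0.75. The part of these regions in the shared calls and in r was not tested.

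Of the 794 genes at an FPKM of 100 or more in ES wild type, 4.53% were higher in EBs and 15.1% were lower. Their median was -0.33 on the deposited scale, against -0.14 for all genes. Of the 2510 genes under an FPKM of 1 in ES wild type, 18.3% were higher and 19.004% lower. From 1 to 10 the shares were 7.49% and 7.39%, and from 10 to 100 they were 3.46% and 7.49%. The share of lower genes was thus larger at both ends of this range than between them. Non-coding transcripts were higher in 9.65% and lower in 17.5% of 1057 genes, against 7.53% and 9.22% of 13715 coding ones. Genes with several transcripts could hide opposite changes. Of 2480 genes with at least 2 expressed transcripts, 83 (3.35%) had transcripts called in opposite directions. Counted per transcript, 1462 of 18332 were higher (7.98%) and 2000 lower (10.9%).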

How the data were processed

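Trizol-extracted RNA was made into TruSeq version 2 libraries, a poly(A) selection method that does not mark strand, per the labels' protocols. The authors deposited FPKM values made with TopHat and Cuffdiff on mm9, per the submitters' processing notes. The sources used here give no version, annotation release or scaling between libraries, and Cuffdiff's division of reads among transcripts can leave a transcript near 0. Sequencing depth is unknown beyond the relative estimate in the text.

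Accessions were matched to symbols through a RefSeq table of GRCm38.p6, used for names and promoter sequences only. Of 29851 transcripts, 29300 matched and 551 kept their accession. For the 3939 genes with several transcripts, the one with the highest mean over the 6 RNA libraries was used. A pseudocount of 1 was added before log2. Python 3.11.15, pandas 2.3.3 and numpy 2.4.6 were used, and the functions were tested on simulated data. No label says that cultures were separate, and with 1 library per group no test was made.

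The comparison and the 43 lists (987 genes) were chosen with earlier results of these data known, and gene families were set by symbol, leaving out antisense and pseudogene symbols, after the values were seen. Named genes are the core PRC2 genes, the 15 largest changes each way at an FPKM of at least 5, the 10 highest levels each way and up to 4 called members per list, with at most 2 in the direction of fewer calls. Members of families and of runs of neighbours, and the genes printed among those the rule names, were chosen after their values were seen. A small RNA or numbered locus was left out of the largest changes. Alternatives varied the pseudocount, the filter, the scaling, the transcript choice, the size rule and the chromosomes kept. Values of some genes are not reported here.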

Additional observations from a re-analysis of the deposited data

Results flagged for a closer look

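Of the 229 genes named by the rule, 8 passed the size rule in opposite directions in EBs and in ES cells, with no library shared between the 2 comparisons. Over all expressed genes such opposite calls were near the background. Of genes higher in EBs 3.44% were lower in ES cells, against 3.01% of all genes. Of genes lower in EBs 2.97% were higher in ES cells, against 2.82%. The difference between the stages was not tested, since each group is 1 library. Lower in EBs and higher in ES cells were Rtn1 (-4.73 in EBs and 1.16 in ES cells), the germ cell and early embryo gene Dppa3 (-2.27 and 1.28) and the meiotic gene Stra8 (-1.48 and 1.09). Dppa3 had an FPKM of 36.6 in wild-type ES cells, 90.6 in the ES labelled KO, 4.12 in EB wild type and 0.0625 in the EB labelled KO, so its order between the labelled genotypes differed between the stages, which cannot be told apart from a difference between clones.

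Higher in EBs and lower in ES cells were the fibrillar collagens Col1a2 (2.08 and -2.12) and Col1a1 (1.104 and -1.92), the integrin Itga3 (1.36 and -1.02), the Hedgehog target Gli1 (1.88 and -1.39) and H2-Q8 (4.28 and -1.08). Col1a2 had an FPKM of 7.37 in wild-type ES cells, 0.929 in the ES labelled KO, 138 in EB wild type and 589 in the EB labelled KO, and Col1a1 had 19.7 in wild-type ES cells, 4.45 in the ES labelled KO, 273 in EB wild type and 587 in the EB labelled KO. H2-Q8 had 1.12 in wild-type ES cells, 1.82e-05 in the ES labelled KO, 2.31e-05 in EB wild type and 18.4 in the EB labelled KO, and its reads may be shared with near-identical neighbours. Col1a1 and Itga3 lie on chromosome 11, where the median gene was lower in both comparisons, and Col1a2, Dppa3 and Stra8 on chromosome 6, where it was higher.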

How the results depend on the processing

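No paired analysis was possible because each group is 1 library without a shared replicate number, and for the same reason no replicate could be left out. With a pseudocount of 5 the size rule called 452 genes higher and 627 lower, and 37.2% of the higher genes lay on chromosomes 3, 6 and 11, against 28.9% in the text. With a pseudocount of 0.1 it called 1645 and 2121, and that share was 26.2%. Among genes with an FPKM of at least 5 in an EB library the share was 32.7%, with 791 higher and 1085 lower. Requiring a difference of at least 2 left 213 higher and 390 lower. Without chromosome 3 from 90 to 110 Mb, an alternative chosen after seeing the data, the counts were 1033 and 1441 and the share was 21.9%. Without chromosome 14 beyond 90 Mb, also chosen after seeing the data, they were 1133 and 1421. Without chromosomes 3, 6, 11 and Y they were 807 and 1048.

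Of the 43 list medians, 34 kept their sign under all 13 alternatives, and between 27 and 30 lay above the median of all genes, against 29 in the text. The germ cell median turned from -0.57 to 0.70 at the FPKM minimum of 5, where 1 gene was left. Of the 229 named genes, 156 kept their call under all 6 alternatives run on single genes, and none turned its direction. Under the pseudocount of 5, 71 named genes lost their call. The lower depth estimated for the EB labelled KO limits what can be said of genes near 0 there.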
